A study of Mus musculus with 4 samples.

Results

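The genes described here build glycans. They were chosen by symbol alone: every mouse gene on the array whose name starts with Galnt, C1galt, Gcnt, Fut, St3gal, St6gal, St8sia, B3gnt, B3galt, B4galt or B4galnt. There were 77 such genes, read by 166 probe sets, among the 18193 genes that single-gene probe sets named. The brightest probe set by mean over the 4 arrays stood for each gene, and a gene was kept if that mean exceeded 113.9, the median over the table. That kept 49 genes (63.6%, against 66.6% of all genes): 11 starters of O-glycans, 4 builders of their cores, 5 fucosyltransferases, 14 sialyltransferases, 7 B3gnt and B3galt genes and 8 B4galt and B4galnt genes. Signal intensity was measured on 2 arrays of conventionalized mice, which had been germfree and were then given the intestinal flora of 1 conventionally raised mouse for 10 days, and on 2 arrays of germfree mice. All were male NMRI mice of 8 weeks, and the sample was Paneth cells cut by laser from frozen sections of small intestine. RNA of 3 mice was pooled per group, and the 2 arrays of a group are separate amplifications of 10 ng of that pool. The p-values below therefore set the difference between 2 pools against amplification and array error, with no measure of the spread between mice, and the number of arrays limits the precision.

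Paneth cells sit at the base of small intestinal crypts and secrete antimicrobial proteins. Like their neighbours they carry glycoproteins and glycolipids. In O-glycans of the mucin kind, sugars are added one at a time in the Golgi, from a first GalNAc on serine or threonine. A core and a chain of galactose and GlcNAc follow. Other genes described here act on N-glycans, glycolipids or the linker of proteoglycans. Chains can carry an end of fucose, sialic acid or GalNAc. In the gut epithelium these ends serve microbes as food and as attachment sites. Fut2, which caps galactose with fucose, is known as a gene that the small intestinal epithelium switches on after colonization, through signals from lymphoid cells such as interleukin 22.

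The 4 arrays differed in ways that touch every gene below. Conventionalized replicate 2 stood apart: across the 22491 probe sets tested, its correlations with the other arrays were 0.754 to 0.779, whereas the others correlated with each other at 0.855 to 0.89. The conventionalized arrays ran on fluidics station 2 and the germfree ones on station 1, so the effect of the station cannot be told apart from that of the group. Markers of the labelled cell type were bright: the median signal of 13 tested Paneth markers was at least 5627 on every array, against array medians of 86.5 to 135.9. Markers of its neighbours were bright too, with medians of at least 3079 for 15 goblet and 3762 for 14 enterocyte markers. These signals therefore do not single out Paneth cells. The summed signal of the 14 Paneth markers on the array was 384595 and 907778 on the conventionalized arrays and 83332 and 173092 on the germfree arrays. That of 15 goblet cell markers was 148066 and 236047 against 62853 and 108003, and that of 14 absorptive enterocyte markers 121727 and 276883 against 110825 and 199732. By log2 difference, 12 of 13 Paneth, 9 of 15 goblet and 2 of 14 enterocyte markers tested were higher in the conventionalized pool, and no marker of these lists was at 0. In the other marker lists read, only Igha, of plasma cells, was called by limma (adjusted p = 5.55e-05). It read 6273 and 7988 on the conventionalized and 994 and 1644 on the germfree arrays. Of 3 B and plasma cell markers tested 3 were higher in the conventionalized pool, and of 11 enteroendocrine markers 2. Goblet cells and enterocytes also express glycosyltransferases, and the part of all these markers in the results below was not tested. In such captures fewer cells of a type and less RNA per cell cannot be told apart.

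None of the 49 genes was called between conventionalized and germfree Paneth cells. Differences are given as log2(signal + 32), conventionalized minus germfree, so that 1 is a doubling and dim genes are understated. A call means a Benjamini-Hochberg adjusted p under 0.05 over all probe sets tested, in limma's moderated linear model. Standard errors, given after ±, are shared in this fit among probe sets of similar brightness. They are not the spread of a gene's own duplicates. Of all 22491 probe sets, 75 were called (0.333%), 27 of them higher (0.12%) and 48 lower (0.213%). With each array centred on its median, the split was 6 higher and 21 lower. With 49 genes a count of 0 is close to that background and is no result about them. At an unadjusted p under 0.05 stood 2 of the 49 (4.08%), B4galt3 and B4galt6, against 5.13% of all probe sets. Over the 12113 genes tested, each read by its brightest probe set as the 49 were, the share was 5.94%. Which of the 49 stood there depended on the variance model. Without the variance trend, limma gave 4: B3gntl1 (unadjusted p = 0.00515), St3gal3 (0.00907), B4galt3 (0.012) and B3galt5 (0.0438). B4galt6 was at 0.074 in that fit. With a prior of 4 degrees of freedom the 2 were again B4galt3 (0.0304) and B4galt6 (0.0289). No probe set of the table, and so none of the 49, was called by limma once the variance trend was dropped or the prior held at 4 degrees of freedom, where 975 and 464 probe sets had an unadjusted p under 0.05.

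The 49 differences lay close to those of other genes. Of the 49, 27 were above 0 and 22 below, with a median of 0.03 and quartiles of -0.25 and 0.35, while all probe sets tested had a median of 0.0 and quartiles of -0.4 and 0.39. A difference of at most 0.5 either way was found in 35 genes (71.4%, against 60.3% of all probe sets), and one of 1 or more in 6 genes (12.2%, against 12.6%). Over all genes tested, each read by its brightest probe set, these shares were 62.5% and 11.3%. The backgrounds that follow are shares of all probe sets. The groups did not overlap for 7 genes with higher signals in conventionalized cells (14.3%, background 15.8%) and for 5 with lower ones (10.2%, background 15.3%). In 5 of these 12 genes the difference was also at least 1 in size, which is 10.2% of the 49 against a background of 9.54%. The difference exceeded the gap within either pair of duplicates in 7 genes, 14.3%, with a background of 18.6%. The filter had a hand in these counts: 9 of the 49 genes had a group mean under the filter in their lower group, 5 of them with the conventionalized arrays higher (B3gntl1, B3galt5, St8sia6, B3gnt6 and B3galt4) and 4 with the germfree arrays higher (B4galt3, St3gal3, Galnt5 and B3galt6).

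**Figure D1:**
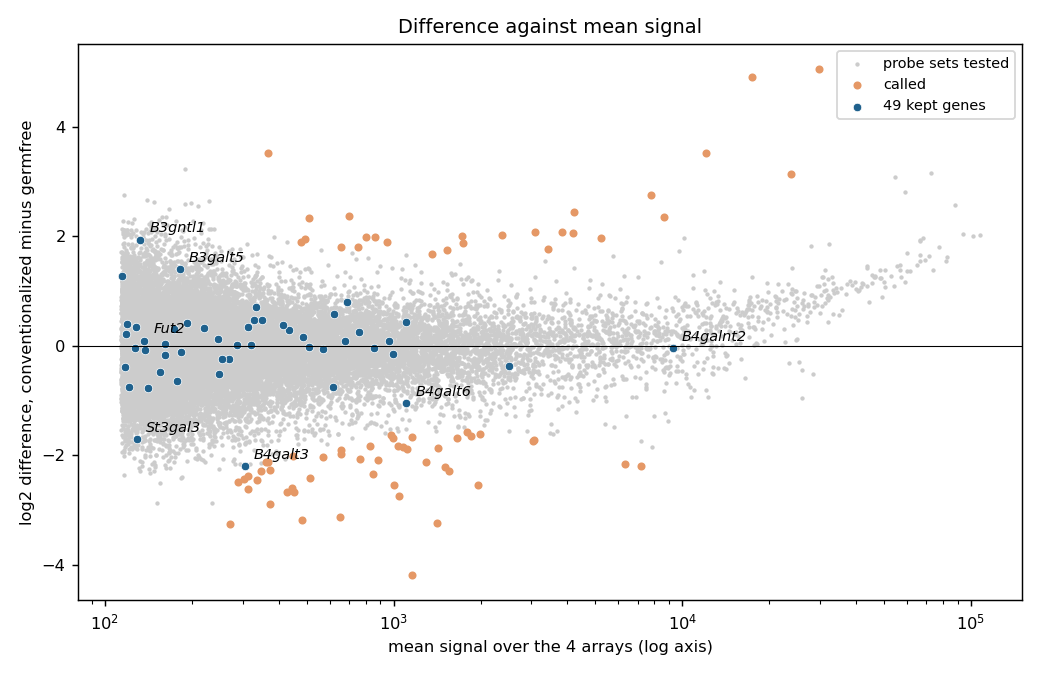
Log2 difference, conventionalized minus germfree, against mean signal over the 4 arrays on a log axis, for the 22491 probe sets tested (grey), the 75 called (orange) and the 49 kept glycosyltransferase genes (blue). The blue points lie inside the grey cloud, and B4galt3 at -2.21 lies at the edge of the called probe sets without being one.

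Fut2 (gene identifier 14344) gave no difference that these arrays could measure. Its tested probe set had signals of 106 and 175 on the conventionalized arrays and of 182 and 85.1 on the germfree arrays. The germfree pair held both the highest and the lowest value, so the groups overlapped fully. The log2 difference was 0.09 ± 0.87 (SE, 2 arrays per group; limma adjusted p = 0.999), and the exact permutation test over the 4 arrays gave p = 1, where the smallest two-sided p it allows is 0.333. The 95% interval ran from -1.6 to 1.79, so neither a doubling nor a halving was outside it. Leaving out 1 array changed its sign: it was 0.39 and -0.2 with conventionalized replicate 1 or 2 left out, and 0.53 and -0.34 with germfree replicate 1 or 2 left out.

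The second Fut2 probe set read otherwise. It fell under the filter with a mean of 90.4, and its signals were 68.9 and 247 on the conventionalized arrays and 24.3 and 21.2 on the germfree arrays. Both conventionalized arrays lay above both germfree arrays, and the conventionalized duplicates were themselves 1.47 apart on the log2 scale. Fitted with no filter, this probe set differed by 1.62 ± 0.96 (limma adjusted p = 1, interval -0.26 to 3.5). Since 2 of its values lie under the pseudocount, the size of its difference is set by that choice: 2.19 with a pseudocount of 8 and 0.85 with one 4 times as large as 32. The annotation table lists both probe sets for Fut2 alone, and these files do not show which part of the transcript each one reads.

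**Figure D2:**
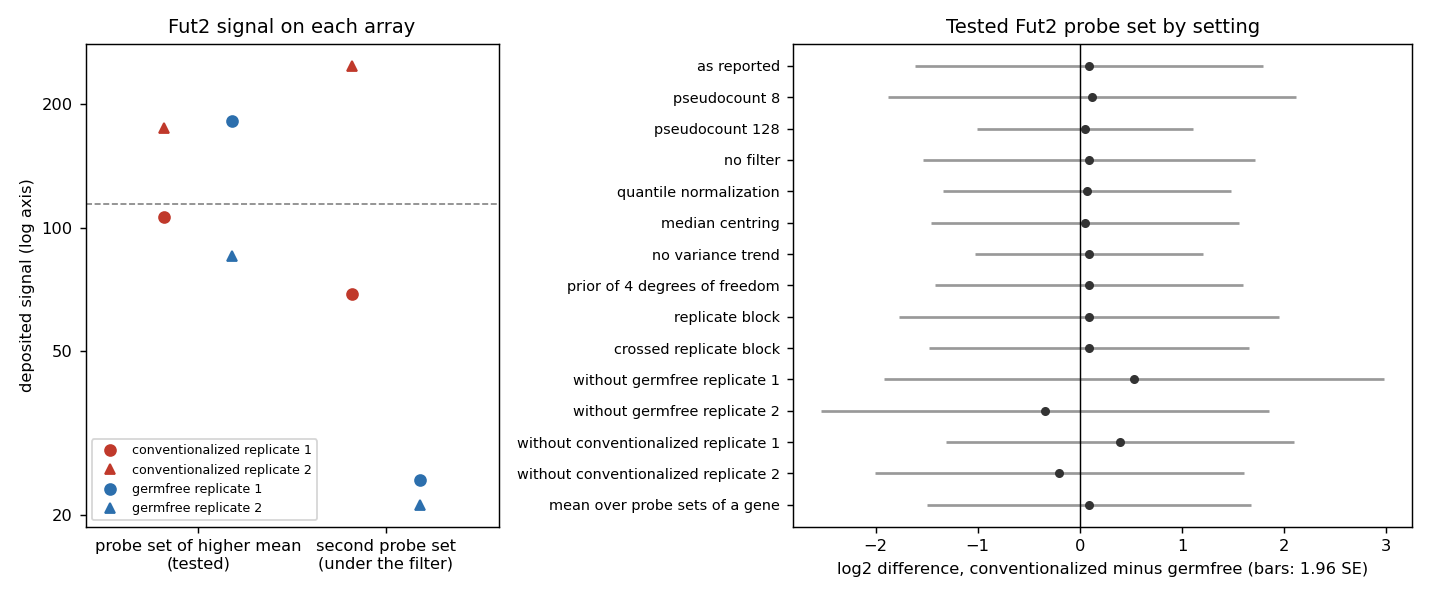
Left, signals of both Fut2 probe sets on each array on a log axis, with the conventionalized arrays left of the germfree arrays and the filter of 113.9 as a dashed line. Right, the log2 difference of the tested probe set under each setting tried, with bars of about 2 standard errors: every bar crosses 0, and 2 of the estimates made with 1 array left out lie below it.

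The 4 other fucosyltransferases kept were not called. Fut8, which adds the fucose at the core of N-glycans, had signals of 462 and 358 in conventionalized and 273 and 302 in germfree cells. These groups did not overlap, and the difference of 0.46 ± 0.51 was smaller than its standard error (limma adjusted p = 0.999); a second tested Fut8 probe set gave -0.2. Fut4, which makes Lewis x ends by adding fucose to GlcNAc, read 740 and 311 in conventionalized and 479 and 510 in germfree cells. The conventionalized duplicates of Fut4 lay on both sides of the germfree pair, with a difference of -0.03 ± 0.46. Fut10 and Fut11 are relatives of the fucosyltransferases of the Fut4 kind. Fut10 read 264 and 589 in conventionalized and 316 and 167 in germfree cells, a difference of 0.7 ± 0.53. Fut11 read 112 and 130 against 180 and 84.8, a difference of -0.04 ± 0.92. Both overlapped between the groups. Fut4 and Fut11 changed sign with 1 array left out: Fut4 was 0.55 without conventionalized replicate 2 and 0.01 without germfree replicate 2, and Fut11 was 0.04 without conventionalized replicate 1 and 0.39 without germfree replicate 1. Fut1, which makes the same linkage as Fut2, had a mean signal of 20.6 and lay under the filter, as did Fut7, Fut9 and the pseudogene Fut4-ps1, whose symbol also begins with Fut.

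O-glycans start with the Galnt enzymes, which put GalNAc on serine and threonine and so lay the base of every mucin glycan. Of 18 on the array 11 were kept, 3 above and 8 below 0, with a median difference of -0.25 and a range of -0.78 to 0.8. Galnt1, a widely expressed starter, had signals of 2645 and 1754 in conventionalized and 2645 and 2988 in germfree cells. Its groups met at 2645 without overlapping at the precision deposited, and its difference was -0.38 ± 0.43 (95% interval -1.22 to 0.46). Galnt3, known for protecting the phosphate hormone FGF23 from cleavage, read 1265 and 554 against 533 and 413. Both conventionalized arrays were above both germfree arrays, although the lower of them by little, and the difference was 0.8 ± 0.44 (limma adjusted p = 0.999). Its second tested probe set gave -0.32. Galnt5, with the lowest value of the group, read 173 and 38.3 in conventionalized and 209 and 145 in germfree cells, so the groups overlapped and the difference was -0.78 ± 0.9. The 8 other Galnt genes kept lay from -0.75 to 0.43, and none of them had groups that did not overlap.

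Of the 4 core builders kept, 1 was above and 3 were below 0, with a median difference of -0.11. C1galt1 adds galactose to make core 1, C1galt1c1 is the chaperone that C1galt1 needs to fold, Gcnt3 adds the GlcNAc branch of core 2 in mucin-making epithelia, and Gcnt2 branches longer chains. C1galt1c1 had signals of 1307 and 707 in conventionalized and 771 and 1061 in germfree cells, with a difference of 0.09 ± 0.42 (95% interval -0.74 to 0.92). Gcnt3 read 1178 and 725 against 1078 and 993, a difference of -0.16 ± 0.42 with an interval of -0.98 to 0.67. In both genes the conventionalized pair spanned the germfree pair, and for both, as for C1galt1 (-0.07, an interval of -0.95 to 0.82), the interval of this fit excluded a doubling and a halving. That rests on the variance model: with median centring, the replicate block, no variance trend or a prior of 4 degrees of freedom, no interval of the 49 genes was that narrow. The second tested probe set of C1galt1 gave 0.92. As fitted, 6 of the 49 genes had an interval that narrow (12.2%). The share was 6.84% over all probe sets tested and 8.97% over all genes tested, each read by its brightest probe set. The other 3 of the 6 were Galnt4, Galnt10 and Fut4. All 6 were among the 25 kept genes in the brightest 25% of all probe sets. C1galt1, Galnt4 and Galnt10 were singled out after their values were seen. C1galt1c1 and Gcnt3 changed sign with 1 array left out, C1galt1c1 to -0.34 without conventionalized replicate 1 and -0.14 without germfree replicate 1, and Gcnt3 to 0.18 without conventionalized replicate 2. Gcnt3 was 0.05 as the mean of its tested probe sets. Gcnt2 read 178 and 91.2 in conventionalized and 226 and 213 in germfree cells. Its groups did not overlap, its difference was -0.65 ± 0.71, and its other tested probe sets gave 0.91 and 0.01, so that their mean was 0.09.

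**Figure D3:**
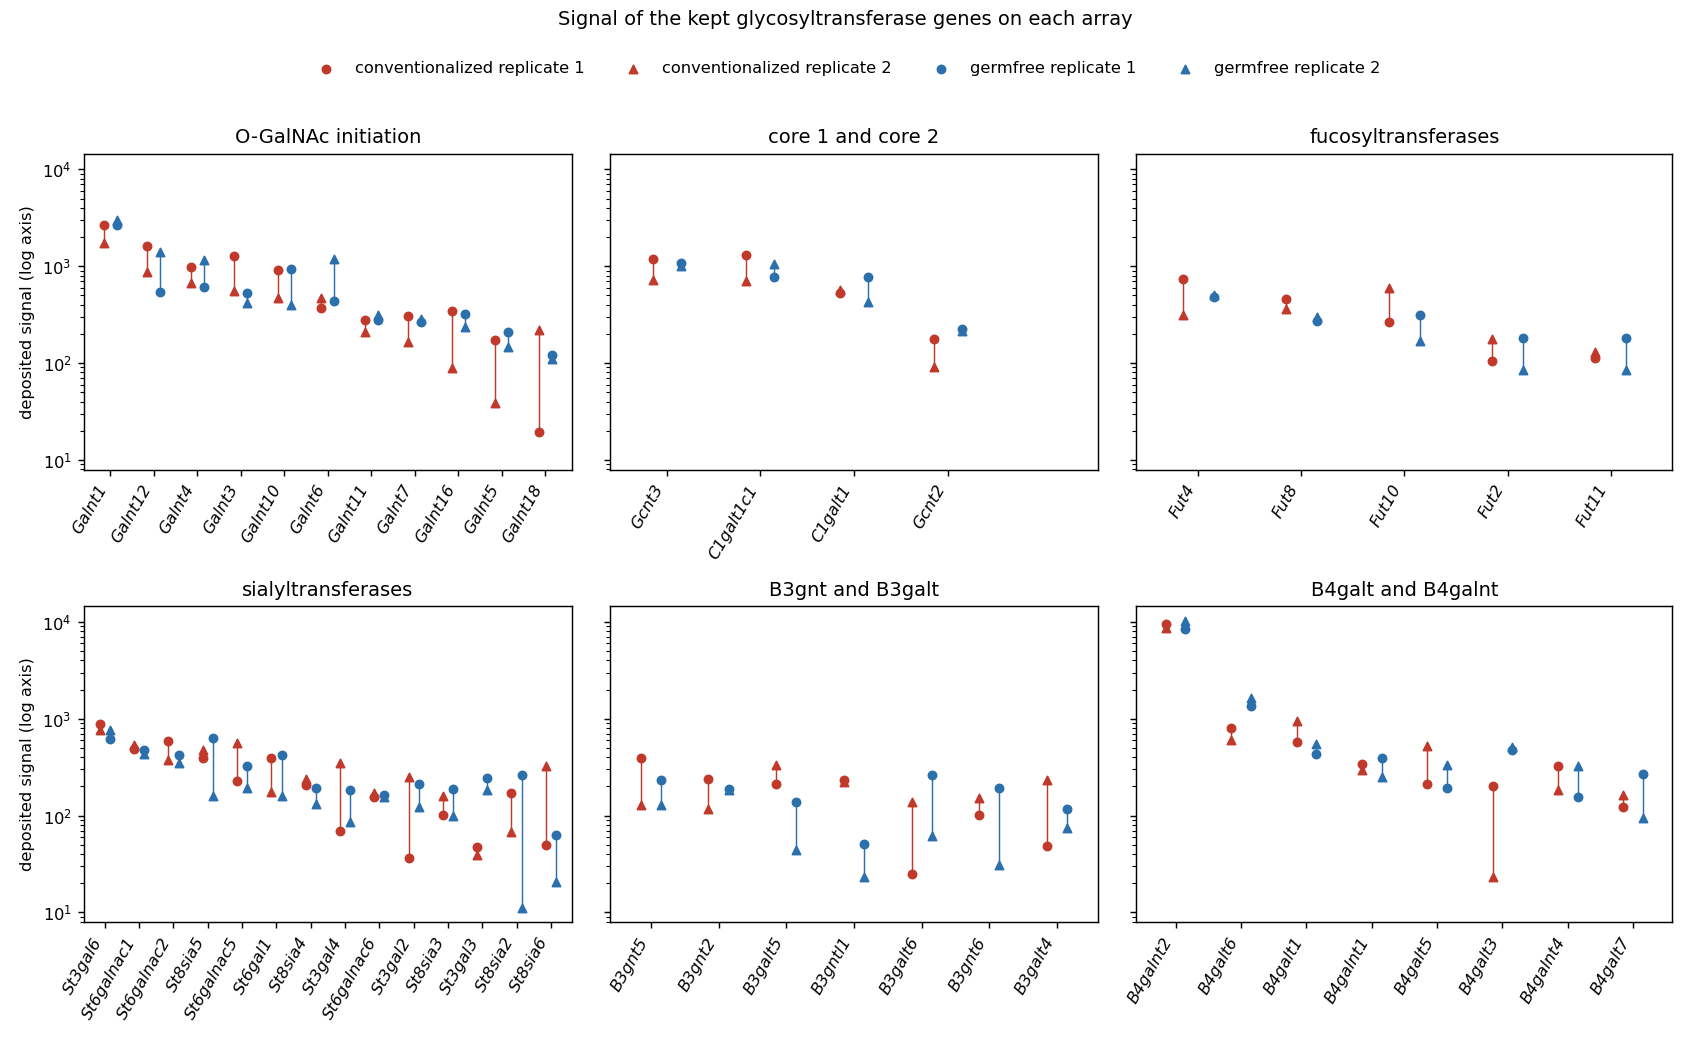
Deposited signal on a log axis of each of the 49 kept genes, by role, with the 2 conventionalized arrays (red) left of the 2 germfree arrays (blue) and a line joining duplicates. Heights of different genes cannot be compared, since each probe set has its own response; the plot shows how far duplicates spread beside the distance between groups, as for B4galt3, with conventionalized signals of 204 and 23.5 against 478 and 514.

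Sialyltransferases cap chains with sialic acid, the St3gal and St6gal families on galactose or GalNAc and the St8sia family on another sialic acid. Of 20 on the array 14 were kept, 11 above and 3 below 0, with a median of 0.27. St3gal6 had signals of 881 and 764 in conventionalized and 621 and 766 in germfree cells, a difference of 0.24 ± 0.43. That reading came from a probe set whose suffix marks possible binding of other transcripts. The 2 other tested St3gal6 probe sets had lower signals on both conventionalized arrays than on both germfree arrays, with differences of -0.56 and -0.88, and the mean over all 3 was -0.4. St3gal3 read 47.1 and 39.3 in conventionalized and 244 and 186 in germfree cells. The groups were well apart and the duplicates close, and the difference of -1.71 ± 1.08 was not called (limma adjusted p = 0.999). Without the variance trend its standard error was 0.52, and it was not called there either. The gene passed the filter through the germfree arrays alone. St8sia6, the kept gene nearest to the filter with a mean of 114.4, read 49.3 and 324 in conventionalized and 63.4 and 20.4 in germfree cells. It passed the filter through 1 conventionalized array, and its difference was 1.27 ± 1.43. The gene nearest below the filter was B3gnt7, with a mean of 111.6 and signals of 158 and 68.1 in conventionalized and 205 and 15.2 in germfree cells. The other 11 sialyltransferases kept lay from -0.49 to 0.46.

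B3gnt and B3galt genes extend chains with GlcNAc and galactose, and B4galnt and B4galt genes add GalNAc or galactose in the other common linkage. Of the 7 B3gnt and B3galt genes kept 5 were above 0, with a median of 0.32. B3gntl1, named for its likeness to the B3gnt enzymes, had signals of 234 and 222 in conventionalized and 51.4 and 23.4 in germfree cells. The groups were apart by more than either pair of duplicates, and the difference of 1.93 ± 1.11 (limma adjusted p = 0.999) was the highest of the 49. The gene passed the filter through the conventionalized arrays alone. B3galt5 read 211 and 335 in conventionalized and 138 and 43.7 in germfree cells. Its groups did not overlap either, with a difference of 1.39 ± 0.76 (limma adjusted p = 0.999), but a second tested probe set gave -0.75. B3gnt5, which starts a series of glycolipids, overlapped between the groups at 390.3 and 127.9 in conventionalized and 234.5 and 129.9 in germfree cells, a difference of 0.32 ± 0.63. B3galt6, which acts on the linker of proteoglycans, read 24.8 and 137 against 263 and 61.2, a difference of -0.76 ± 1.17. Both changed sign with 1 array left out, B3gnt5 to -0.38 without conventionalized replicate 1 and -0.04 without germfree replicate 2, and B3galt6 to 0.03 without conventionalized replicate 1 and 0.07 without germfree replicate 1.

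B4galt3 (gene identifier 57370), a galactosyltransferase of N-glycans, came nearest to a call. Its signals were 204 and 23.5 in conventionalized and 478 and 514 in germfree cells. Both conventionalized arrays were below both germfree arrays, but the conventionalized duplicates lay 2.09 apart on the log2 scale, about as far as the groups did. The difference was -2.21 ± 0.61 (limma adjusted p = 0.069), or 4.61-fold lower on the scale of signal + 32. Its size rested on conventionalized replicate 2: without that array it was -1.16, and without conventionalized replicate 1 it was -3.25. Either fit leaves 1 conventionalized array, so the gap between those duplicates does not enter its error. With every array in, B4galt3 was called at a limma adjusted p of 0.0492 when each gene was read as the mean of its tested probe sets. That fit ran over 12113 genes and called 0.52%. No second probe set of B4galt3 was tested, so its difference there was the same -2.21. The call adds no evidence from a further probe set. Over the alternatives with every array in, its limma adjusted p ran from 0.0111, with a block that crossed the replicate numbers, to 1. A second B4galt3 probe set, under the filter, did not exceed a signal of 10.6 on any array.

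B4galt6, which makes lactosylceramide, the base of most glycolipids, had signals of 809 and 609 in conventionalized and 1355 and 1651 in germfree cells. The groups were apart by more than either pair of duplicates, with a difference of -1.06 ± 0.42 that did not pass (limma adjusted p = 0.618). Its 3 other tested probe sets gave -0.22, 0.01 and -0.64, each with overlapping groups. B4galt1, the main enzyme that adds galactose to GlcNAc, read 577 and 938 in conventionalized and 430 and 546 in germfree cells. Its groups did not overlap, and the difference was 0.57 ± 0.45. B4galnt2, which in the gut epithelium adds the GalNAc of the Sda and Cad antigens, had signals of 9482 and 8741 in conventionalized and 8543 and 10281 in germfree cells. The 4 arrays lay close together, with a difference of -0.04 ± 0.56, and its 2 other tested probe sets gave 0.06 and -0.29. Without germfree replicate 2 the difference was 0.09, and without conventionalized replicate 2 it was 0.02. Its interval of -1.14 to 1.06 still held a doubling, since the fitted error widens again at high signals.

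**Figure D4:**
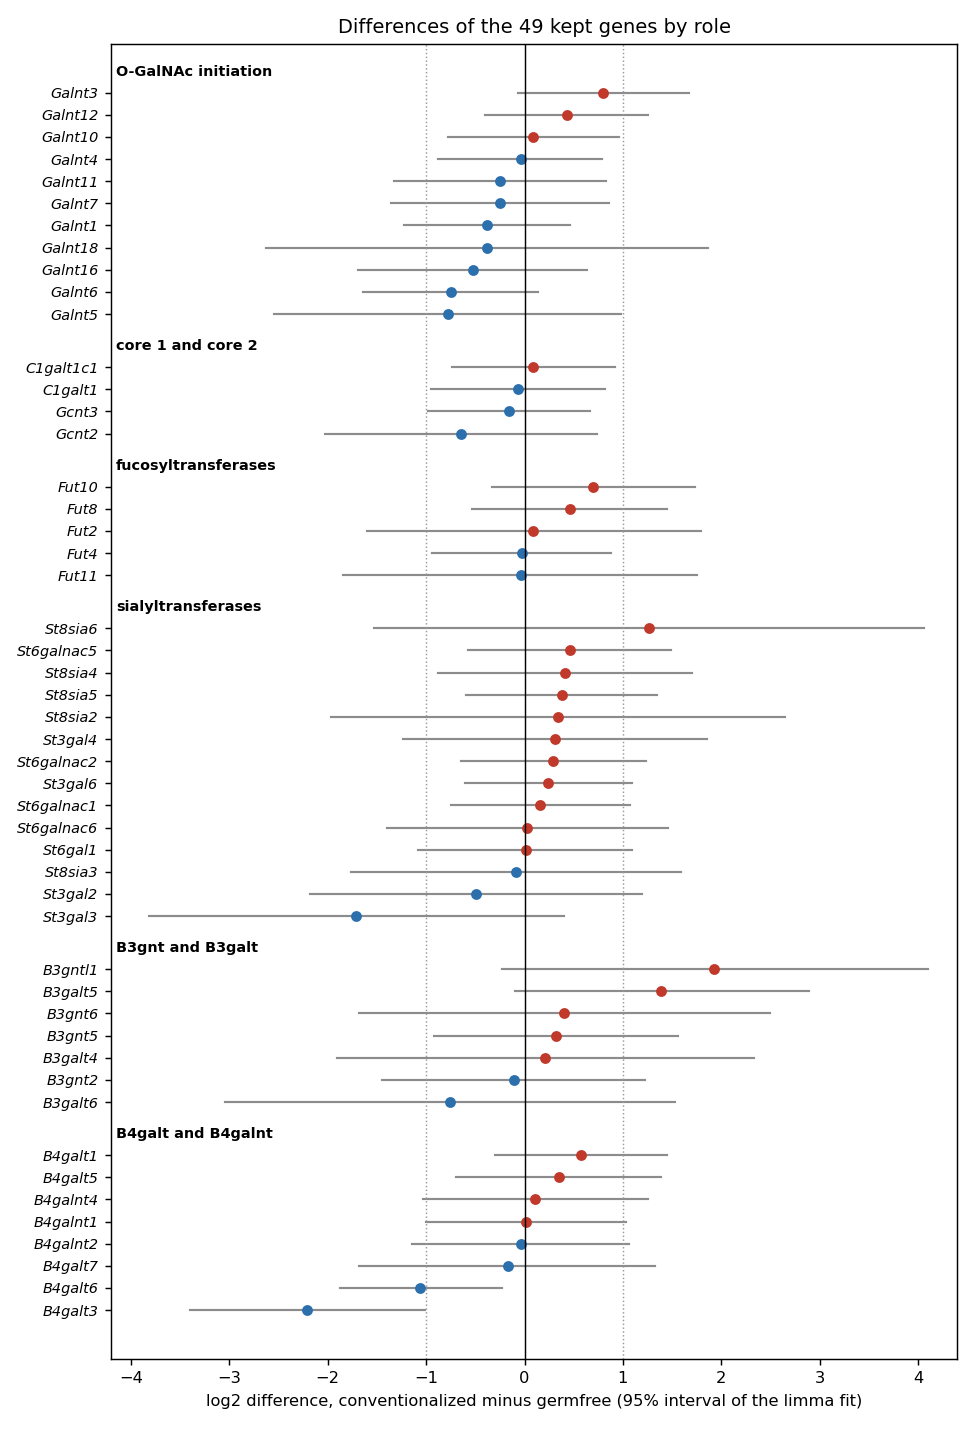
Log2 difference of the 49 kept genes, conventionalized minus germfree, by role, with the 95% interval of the limma fit and dotted lines at a doubling and a halving (red above 0, blue below). The intervals of B4galt3 and B4galt6 leave out 0 before adjustment, and those of 6 genes lie wholly between the dotted lines in this fit.

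Different probe sets of one gene rarely spoke with one voice. Among the 49 genes 16 had more than 1 tested probe set, with 21 such further probe sets. Of these, 6 had a difference of the same sign as the gene's own (28.6%), while over all genes 56.4% of 6671 did. In 13 of the 16 genes the tested probe sets were not all of one sign. None of the 21 was called by limma, and 0 had an unadjusted p under 0.05. With no filter on signal, limma called none of the 166 probe sets of the 77 genes, with 0.147% of all 45037 called. Among the 28 genes under the filter 1 had an unadjusted p under 0.05 there, B3gnt8, named after its values were seen, with signals of 44.8 and 184 in conventionalized and 9.9 and 11.1 in germfree cells. None of the 28 had a mean signal over 111.6.

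Duplicates of these genes spread about as far as those of other probe sets. The median gap between duplicates of the 49 was 0.68 on the log2 scale in conventionalized and 0.58 in germfree cells, and over all probe sets tested 0.62 and 0.54. Duplicates lay more than 2-fold apart in 17 of the 49 genes in conventionalized and in 10 in germfree cells (34.7% and 20.4%, against 29.9% and 21.1% of all probe sets tested). Over all probe sets, the smallest difference that was called had a size of 1.58, and the standard errors of the 49 ran from 0.42 to 1.43. The lowest of the 4 signals fell on germfree replicate 2 for 21 of the 49 genes (42.9%, against 27.9% of all probe sets tested).

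The other genes of glycan building were read from 8 lists of 100 symbols, of which 87 were on the array and 68 passed the filter. None of the 68 was called by limma, against 0.333% of all probe sets tested. An unadjusted limma p under 0.05 was found for 8 (11.8%, against 5.13%). Of these 8, Gmds, A4gnt and Chst5 were higher, and Pmm2, Fpgt, Slc35d2, Slc35a2 and Gal3st2 lower. Of the 68, 43 were above 0 (63.2%, against 50.2%), with a median difference of 0.11 against 0.0. Over all genes tested, each read by its brightest probe set as the 68 were, the 2 shares were 5.94% and 50%. Of 10 genes that supply GDP-fucose, 6 were above 0 with a median of 0.1. The nearest to a call was Pmm2, which makes the mannose phosphate from which GDP-fucose derives. It read 570 and 73.9 in conventionalized and 813 and 786 in germfree cells, a difference of -1.72 ± 0.48 (limma adjusted p = 0.0727). As for B4galt3, conventionalized replicate 2 gave much the lowest value. Fpgt, of the fucose salvage route, had the second largest difference of this list at -1.26 ± 0.54 (limma adjusted p = 0.765). Gmds and Gfus, which turn GDP-mannose into GDP-fucose and were named after their values were seen, had higher signals on both conventionalized arrays than on both germfree arrays. Gmds read 2635 and 2474 in conventionalized and 965 and 1680 in germfree cells, a difference of 0.98 ± 0.42 (limma adjusted p = 0.754). Gfus read 1815 and 2063 against 978 and 1411, a difference of 0.7 ± 0.42 (limma adjusted p = 0.999). Of 6 genes for CMP-sialic acid 5 were above 0 (median 0.26), with Nans, the sialic acid synthase, at 0.56 and Gne, which starts that route, at 0.45. For UDP-sugars 6 of 11 were above 0 (median 0.03), and the transporters Slc35d2 and Slc35a2 stood at -1.13 and -0.96.

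Among the remaining lists, 4 of 10 other terminal and branching transferases were above 0 (median -0.09). A4gnt, which puts GlcNAc on the mucin glycans of glands, had signals of 548 and 393 in conventionalized and 334 and 106 in germfree cells, without overlap, and a difference of 1.14 ± 0.53 (limma adjusted p = 0.859). Mgat1, which opens the way to complex N-glycans, was at -0.75. Of 5 sulfotransferases 2 were above 0 (median -0.11), with Chst5 at 1.16 and Gal3st2 at -0.95. Of 7 glycan-degrading enzymes 6 were above 0 (median 0.22), with the fucosidase Fuca1 at 0.68 and the galactosidase Glb1 at 0.29. Of 8 mucin-type acceptors 6 were above 0 (median 0.2). Cd24a, a small heavily glycosylated surface protein, stood at 0.95 and the membrane mucin Muc3 at -0.94, both without overlap between the groups. In the list of receptors and factors known upstream of gut fucosylation 8 of 11 were above 0 (median 0.11). Socs3, a target and brake of interleukin 6 and 22 signals, read 1683 and 1714 in conventionalized and 1234 and 870 in germfree cells. Both conventionalized arrays lay above, with a difference of 0.7 ± 0.42 that did not pass (limma adjusted p = 0.999). Spdef, a factor of secretory cells, was at 0.6 ± 0.77.

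**Figure D5:**
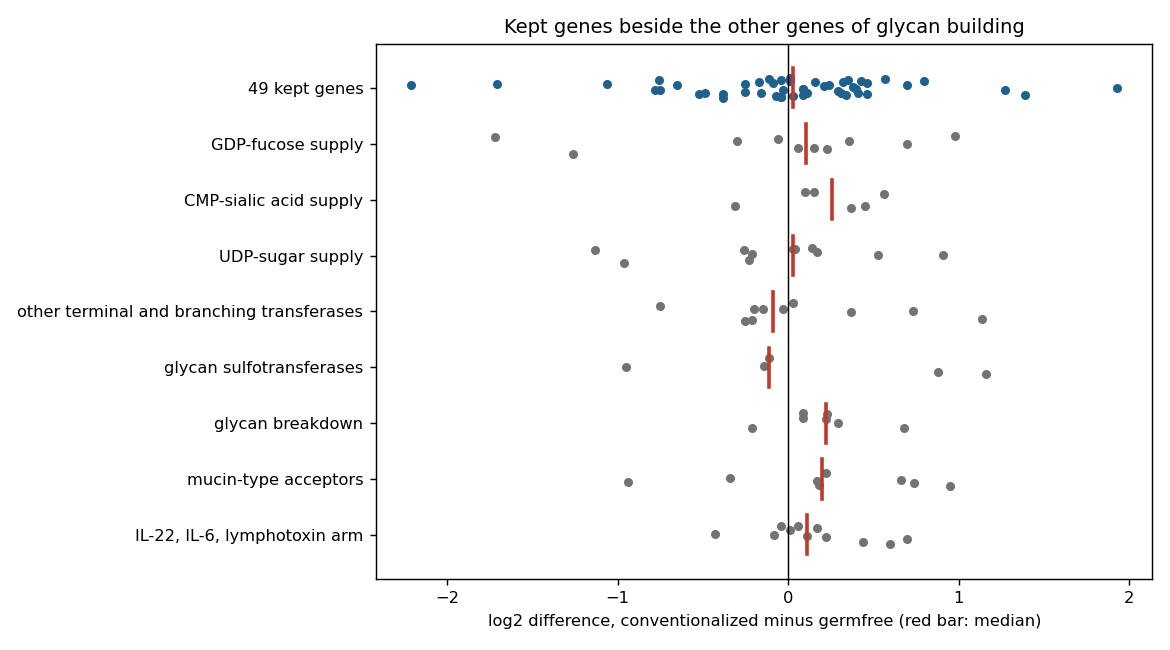
Log2 differences, conventionalized minus germfree, of the 49 kept genes (blue) and of the 68 tested genes in 8 other lists of glycan building (grey), 1 point per gene, with the median of each list as a red bar. All medians lie between -0.11 and 0.26.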

How the data were processed

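Linear intensities, 1 for each probe set on each array, were used as deposited; the authors had scaled them, since all 4 arrays shared a mean of 250.0 once 2% was trimmed at either end. Which software made them is not given in the sources used. Symbols came from the 2016 platform annotation (45101 probe sets: 34958 naming 1 gene, 932 several, 9211 none), and all 77 family symbols matched a RefSeq gene table. Probe sets entered the fit with a mean above 113.9, without the 64 controls. The fit used log2(intensity + 32), with 32 as the first power of 2 over 23.0, below which 20% of values lay. The comparison used lmFit and eBayes with a variance trend (limma 3.58.1, R 4.3.3) over all 22491 probe sets. The prior degrees of freedom were infinite, so each standard error is shared among probe sets of similar brightness. The fit was tested on simulated data, whose noise depended on brightness alone, as the fit assumes. That test cannot show whether the shared error suits these arrays. The members and lists were chosen with earlier results of these data known. The genes named in full, 22 of the 49, are the tested Fut genes, in each role the one with the highest signal and those with the highest and lowest difference, those differing by 1 or more without overlap, and the one nearest above the filter; B3gnt7 was named as the nearest below it. In the other lists the 2 largest differences are named. Alternatives were other pseudocounts, filters, scalings, variance models, a block for replicate number, gene means, and each array left out. The filter was not recomputed for the last.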

Additional observations from a re-analysis of the deposited data

How the results depend on the processing

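Of the 49 genes, limma called 0 under a lower and a higher pseudocount, no filter, the brightest 25% of probe sets (25 genes), quantile normalization, median centring, both other variance models and the replicate block. B4galt3 alone was called without conventionalized replicate 1, with gene means and with the crossed block, 1 gene each time. A fit with 1 array left out has a single array in that group, so the spread of that group's duplicates does not enter its error. The median difference of the 49, 0.03, lay between -0.13 (germfree replicate 2 left out) and 0.23 (germfree replicate 1 left out), where the median of all probe sets was -0.11 and 0.06; with every array in, it lay between -0.01 and 0.09. Probe sets called over the whole table, 75, were 27 with median centring, 0 without the variance trend (975 at an unadjusted p under 0.05), 0 with a prior of 4 degrees of freedom (464), 30 with the replicate block, and 41 to 213 with 1 array left out. The replicate numbers mark aliquots and pair nothing in the labels. Deviations of same-numbered arrays correlated at -0.13, and the crossed pairing, added after seeing the data, called 228. With 1 array left out the following changed sign: Fut2 (-0.34 to 0.53), Fut4 (-0.62 to 0.55), Fut11 (-0.47 to 0.39), C1galt1c1 (-0.34 to 0.52), Gcnt3 (-0.49 to 0.18), B3gnt5 (-0.38 to 1.02), B3galt6 (-1.59 to 0.07) and B4galnt2 (-0.17 to 0.09). B4galt3 ran from -3.25 to -1.16. The cause was not tested. As means over a gene's tested probe sets, an alternative given for all named genes after seeing the data, Gcnt3 (0.05), Gcnt2 (0.09) and St3gal6 (-0.4) changed sign. The 11 other genes named in full kept their sign and stayed uncalled under the alternatives run, those outside the brightest 25% not being tested there. The 6 narrow intervals were 0 with median centring, the replicate block and both other variance models, and 0 to 1 with 1 array left out. At signals near the filter, standard errors of about 1 leave a doubling undetectable. At brighter signals too, the fit as reported called no probe set with a difference under 1.58 in size.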
